A study of Sus scrofa with 9 samples.

Results

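Heart muscle cells contract when calcium leaves the sarcoplasmic reticulum, the calcium store wrapped around the contractile fibres, and relax when it is pumped back. Calcium entering through a surface channel opens the ryanodine receptor, and the pump, held in check by a small membrane protein, then refills the store, while an exchanger at the surface removes the rest. The mature ventricle relies mainly on this store, whereas the immature heart leans more on calcium crossing the surface membrane. The genes described here encode the parts of that cycle, and they were chosen by name: RYR2 (the release channel), CASQ2, TRDN, ASPH and HRC (calcium-binding and anchoring proteins at the release site), JPH2 (a membrane bridge), ATP2A2, PLN and S100A1 (the pump, its inhibitor and a calcium sensor) and SLC8A1 (the sodium-calcium exchanger). Of the 10 genes named, 8 had a row under their symbol and TRDN was found under its Ensembl pig identifier, ENSSSCG00000027613, which gave 9 of the 22629 rows of the table. JPH2 was not analysed here.

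The material was left ventricular myocardium of untreated wild type pigs, flash frozen and sequenced as stranded mRNA libraries. Pigs were newborn (day 0), 7 days or 15 days old, and each age had 3 of the 9 libraries. The numbers in their titles are 4, 5 and 6 at day 0, 2, 5 and 6 at day 7, and 1, 2 and 6 at day 15, and values below follow that order. The labels do not say whether each library is a different animal, so the p-values describe the spread among libraries, which may be technical.

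Levels are TPM, a share of each library's transcripts after correction for their length, so that levels of different genes can be compared, while the sequencing depth is unknown. An unnamed gene, ENSSSCG00000032277, held 24.0% to 46.0% of all TPM, most in day 15 replicate 1, and its share moves every other TPM in a library. Day 0 replicate 5 and day 7 replicate 5 also stood apart. They held 2087 and 1446 TPM of the atrial peptide NPPA, against 349 and 495 in the other newborn libraries and 249.9 and 37.2 in the other day 7 libraries, although SLN, a marker of atrial muscle, was at most 0.110 TPM in any library. The 8 heart muscle markers found (of 11 listed) summed to 41338 to 46732 TPM at day 0, 38321 to 48953 at day 7 and 40703 to 43532 at day 15, and 6 skeletal muscle markers summed to at most 3.08 TPM. The summed level was 934 to 1450 TPM at day 0, 1654 to 2281 at day 7 and 1223 to 1519 at day 15 for 9 fibroblast markers. The 5 atrial markers found summed to 572 to 2968, 154 to 2334 and 181 to 657 TPM, and 8 macrophage markers to 65.2 to 78.2, 72.2 to 126 and 63.0 to 274 TPM. For 7 endothelial markers it was 208 to 245, 312 to 342 and 195 to 233 TPM at these ages, and for 8 smooth muscle and pericyte markers 478 to 692, 348 to 453 and 294 to 315 TPM. In bulk tissue, fewer cells of a type and less RNA per cell cannot be told apart. The part of other cells in the results below was not tested, beyond a fit scaled to the heart muscle markers.

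A log2 fold change is the difference of mean log2(TPM + 1) between ages, from a limma fit to all 9 libraries, and a gene passed when its Benjamini-Hochberg adjusted p over 12268 genes was under 0.05. Between day 0 and day 7, 1 of the 9 genes passed (TRDN, higher), where 16.6% of all genes tested did (7.67% higher, 8.88% lower). Between day 0 and day 15, 3 passed (TRDN and S100A1 higher, SLC8A1 lower), where 23.9% of all genes did (5.53% higher, 18.4% lower). None passed between day 7 and day 15 by limma, where 0.171% of all genes did (0.0408% higher, 0.13% lower). For so few genes these counts are near the background of the table. Between day 7 and day 15, 1 member had an unadjusted p under 0.05, a threshold not counted over all genes. The libraries of day 7 and day 0 did not overlap for 3 members that were higher (TRDN, S100A1 and ASPH) and 2 that were lower (ATP2A2 and SLC8A1), beside 41.4% of all genes (17.6% higher, 23.8% lower). For day 15 against day 7 this was 1 member, S100A1, higher, beside 19.4% of all genes (1.46% higher, 17.9% lower). For day 15 against day 0 it was 2 higher (TRDN and S100A1) and 2 lower (CASQ2 and SLC8A1), beside 39.9% of all genes (9.45% higher, 30.5% lower). The median log2 fold change of the 9 genes was 0.01, 0.04 and 0.05 for day 7 against day 0, day 15 against day 7 and day 15 against day 0, beside -0.04, -0.15 and -0.19 over all genes. Scaling the libraries by the median of ratios brought the all-gene median of day 15 against day 0 to 0.01. The first and the last comparison share the newborn libraries, so their values are given side by side and are not independent.

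**Figure D1:**
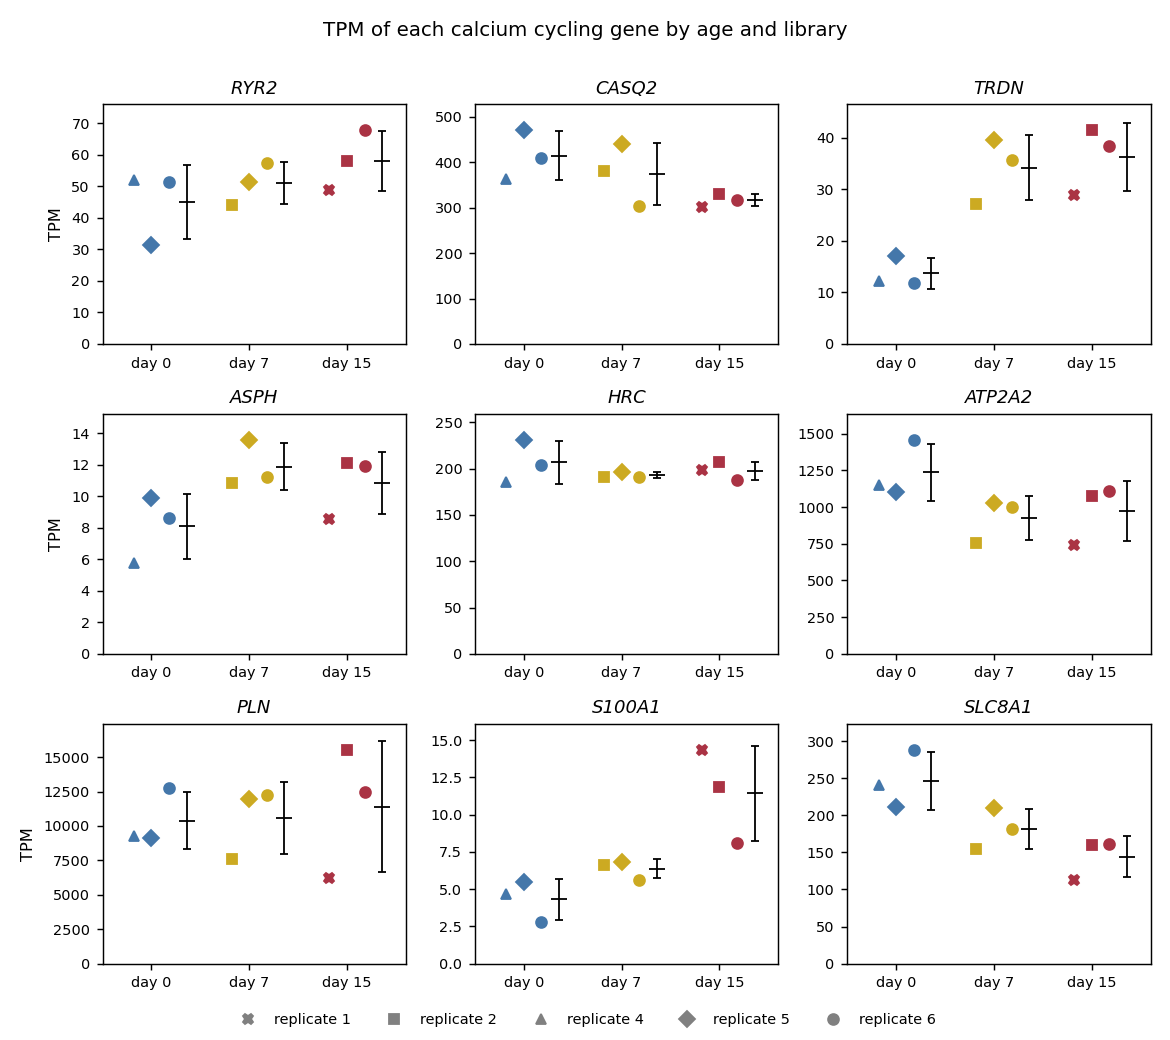
TPM (y axis, from 0) of each of the 9 genes in the 3 libraries of each age (x axis), with the marker shape giving the replicate number and the bar the mean ± SD (n = 3). TRDN lies between 11.8 and 17.2 TPM at day 0 and between 27.2 and 41.5 TPM later, whereas HRC stays between 185 and 231 TPM in all 9 libraries.

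RYR2, the channel that lets calcium out of the store, had the same order of level at each age. Its libraries held 51.9, 31.6 and 51.5 TPM at day 0, 44.2, 51.4 and 57.6 at day 7, and 48.8, 57.9 and 67.9 at day 15. The ages overlapped, and the lowest value came from newborn replicate 5. The mean went from 45.0 ± 11.6 TPM (SD, n = 3) to 58.2 ± 9.55 TPM at day 15, a log2 fold change of 0.39 with a 95% interval of -0.09 to 0.86 (limma adjusted p = 0.213).

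Triadin, TRDN, which anchors the calcium-binding protein of the store to the release channel, showed the clearest change. Its libraries held 12.2, 17.2 and 11.8 TPM at day 0, 27.2, 39.6 and 35.8 at day 7, and 28.8, 41.5 and 38.5 at day 15. Every library of day 7 and of day 15 was above every newborn one, and the later ages overlapped each other. TRDN rose by 1.26 ± 0.21 (SE) on the log2 scale over the first week (limma adjusted p = 0.00541) and was 1.34 ± 0.21 above day 0 at day 15 (limma adjusted p = 0.00244). Day 15 against day 7 gave 0.08 with an interval of -0.38 to 0.55. The difference between the steps was 1.18 with an adjusted p of 0.120 by limma. None of the 9 members passed this test, beside 1.92% of all genes (1.53% with the larger first step and 0.391% with the smaller). TRDN alone had an unadjusted p under 0.05, a threshold not counted over all genes. Both rises passed in each of 21 alternative settings, with adjusted p of 6.73e-04 to 0.0386 for day 7 and 8.16e-04 to 0.0203 for day 15 over these and 2 settings added after seeing the data.

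ASPH encodes junctin, the partner of triadin at the release site, and also an enzyme that hydroxylates proteins. The table gives 1 value per gene, so the products cannot be told apart here. The libraries held 5.79, 9.86 and 8.61 TPM at day 0, 10.9, 13.6 and 11.2 at day 7, and 8.56, 12.1 and 11.9 at day 15. All day 7 libraries were above the newborn ones, while day 15 overlapped both. The log2 fold change at day 7 was 0.53 (0.06 to 0.99, limma adjusted p = 0.105). Day 15 against day 0 gave 0.40 (-0.07 to 0.86, limma adjusted p = 0.191). Both differences passed under 4 other scalings of the libraries, with median-of-ratios scaling at 0.58 for day 7 (limma adjusted p = 0.0145) and 0.62 for day 15 (limma adjusted p = 0.0106). After scaling to the heart muscle markers neither passed. Those 4 scalings also raised the share of all genes called, from 16.6% to between 28.0% and 30.9% at day 7. At day 15 it went from 23.9% to between 29.0% and 31.0%. With the most abundant gene left out of the total, the newborn libraries held 8.84, 14.6 and 11.3 TPM of ASPH and the day 15 libraries 15.9, 17.4 and 18.3 TPM, without overlap. Over all alternatives the limma adjusted p ran from 0.0145 to 0.343 for day 7 and from 0.0106 to 0.541 for day 15.

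CASQ2, cardiac calsequestrin, is the main calcium-binding protein inside the store. It held 363, 470.4 and 409 TPM at day 0, 380.4, 439 and 303 at day 7, and 302, 329 and 317 at day 15. The day 15 libraries were all below the newborn ones and close to each other, at 316 ± 13.5 TPM (SD, n = 3) against 414 ± 53.7. The log2 fold change was -0.38 (-0.77 to 0.01, limma adjusted p = 0.136) as deposited and -0.0028 with quantile normalization.

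HRC, the histidine-rich calcium-binding protein of the store, was measured at 185, 231 and 204 TPM at day 0, 191, 197 and 191 at day 7, and 199, 207 and 188 at day 15. The highest library exceeded the lowest by 1.25-fold. Its SD over the 9 libraries was 0.10 on the log2 scale, and 3 of 7724 genes with a mean of at least 5 TPM had a smaller one. For comparison, 94.0% of those genes had a smaller SD than TRDN and 91.1% a smaller SD than S100A1. The evenness of HRC depended on the scaling: with median-of-ratios scaling, 1721 genes had a smaller SD. Day 15 against day 0 gave -0.06 (-0.39 to 0.27, limma adjusted p = 0.802) as deposited and 0.19 after that scaling.

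The reuptake genes were the most abundant of the group. PLN, phospholamban, which restrains the pump until it is phosphorylated, ranked 9 among all rows by mean TPM and took 0.624% to 1.55% of a library. It held 9273, 9107 and 12753.5 TPM at day 0, 7602, 11930.2 and 12244 at day 7, and 6243, 15533 and 12436 at day 15. Both the lowest and the highest value were at day 15, and the ages overlapped. The low library, day 15 replicate 1, was the one with the largest share of the unnamed gene, and with that gene left out of the total it held 11566 TPM of PLN against 22375 and 19190 in the other day 15 libraries. Day 15 against day 0 gave 0.05, with an interval as wide as -0.62 to 0.73 (limma adjusted p = 0.915).

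ATP2A2 encodes SERCA2, the pump itself, and ranked 63 among all rows. The newborn libraries held 1150, 1103 and 1458 TPM, the day 7 libraries 752, 1025 and 1000.4 TPM, and the day 15 libraries 740.0, 1074 and 1112 TPM. Each day 7 library was below each newborn one, and day 15 overlapped both. The log2 fold change was -0.42 at day 7 (-0.87 to 0.03, limma adjusted p = 0.173) and -0.35 at day 15 (-0.81 to 0.10, limma adjusted p = 0.226). Under median-of-ratios scaling the day 15 value was -0.11.

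S100A1, a calcium sensor that binds the pump and the release channel, had the lowest mean of the group at day 0 and day 7, with 4.64, 5.47 and 2.81 TPM at day 0, 6.65, 6.85 and 5.64 at day 7, and 14.4, 11.8 and 8.07 at day 15. The 3 ages did not overlap, each lying above the one before. S100A1 was 1.23 ± 0.24 (SE) higher on the log2 scale at day 15 than at day 0 (limma adjusted p = 0.00584), and this call held in all 21 alternative settings, where the adjusted p reached at most 0.0363. The steps alone did not pass, with 0.51 for the first week (limma adjusted p = 0.158) and 0.72 for the second (0.20 to 1.24, limma adjusted p = 0.257).

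SLC8A1 encodes the exchanger NCX1, which carries calcium out of the cell in exchange for sodium. It held 241, 211 and 288 TPM at day 0, 155, 209 and 181 at day 7, and 112, 159.8 and 161 at day 15. All later libraries were below the newborn ones, and day 7 and day 15 overlapped. The mean fell from 247 ± 39.2 to 144 ± 27.8 TPM (SD, n = 3), a log2 fold change of -0.78 ± 0.20 (SE, limma adjusted p = 0.0171). The call was lost without newborn replicate 6 (limma adjusted p = 0.0924) or day 15 replicate 1 (limma adjusted p = 0.0547), and over all alternatives the adjusted p ran from 0.0109 to 0.266. The change was -0.53 after median-of-ratios scaling and -0.71 after scaling to the heart muscle markers, and both passed.

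**Figure D2:**
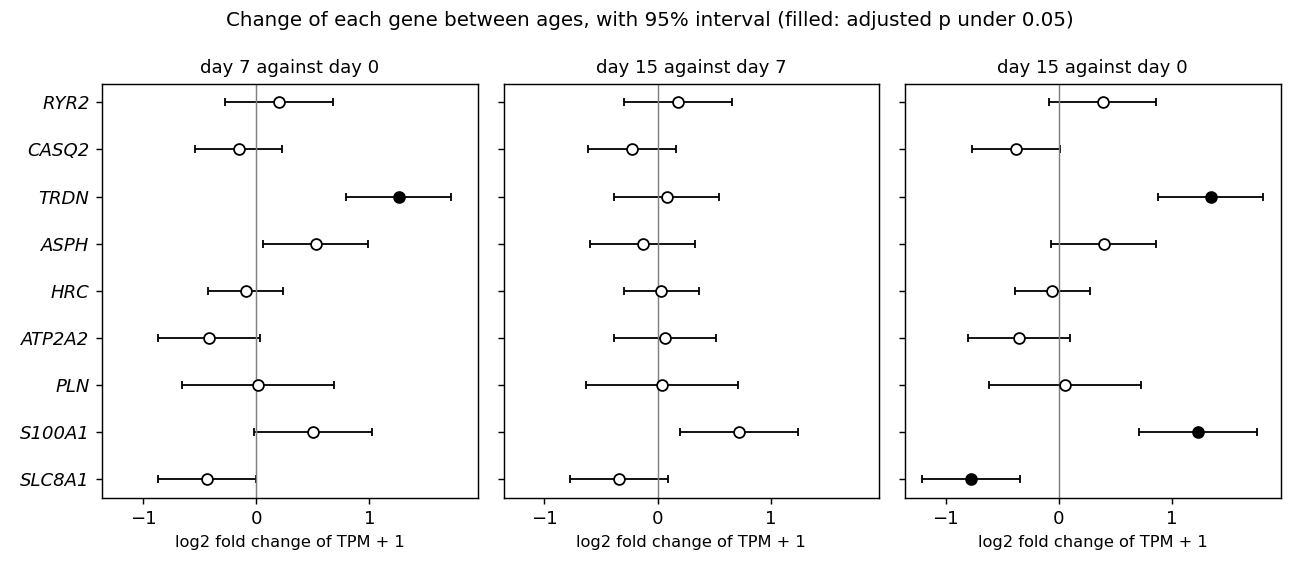
Log2 fold change of TPM + 1 (x axis) of the 9 genes for the 3 comparisons, as points with 95% limma intervals and filled where the adjusted p was under 0.05. TRDN is filled in the first and the last panel, S100A1 and SLC8A1 in the last, and no gene in the middle panel.

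**Figure D3:**
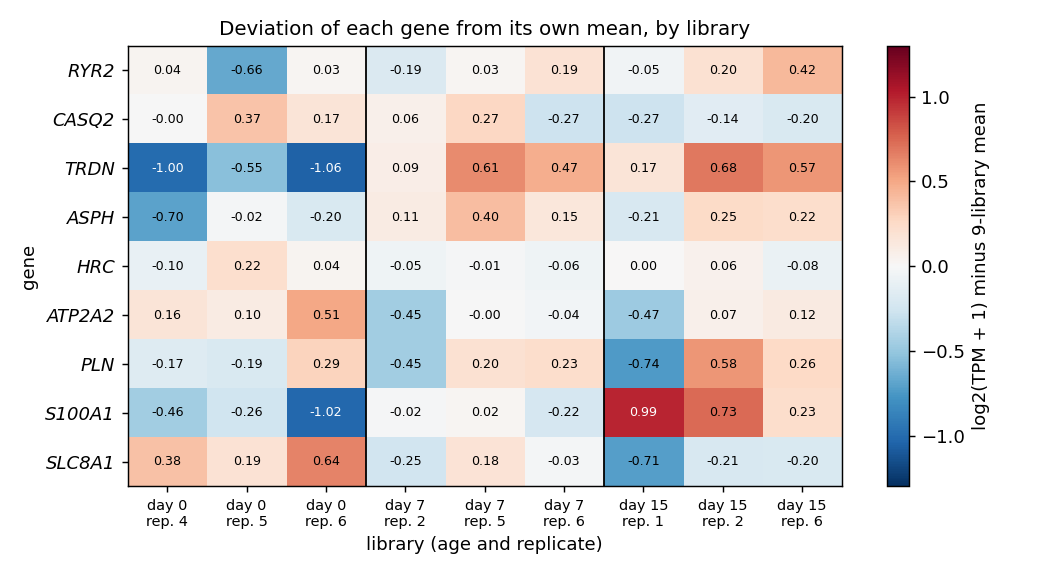
Deviation of log2(TPM + 1) from each gene's mean over 9 libraries, by library (x axis), printed in each cell. TRDN runs from -1.06 in a newborn library to 0.68 at day 15, and day 15 replicate 1 is low for PLN (-0.74), SLC8A1 (-0.71) and ATP2A2 (-0.47) but highest for S100A1 (0.99).

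The order of levels was the same at each age at its top: PLN, then ATP2A2, CASQ2 and, in the newborn libraries, SLC8A1 and HRC. SLC8A1 and HRC were neighbours that exchanged places, at 247 ± 39.2 and 207 ± 23.0 TPM at day 0 and 144 ± 27.8 and 198 ± 9.62 TPM at day 15 (SD, n = 3), with overlapping libraries at day 0. RYR2 came next, then TRDN. ASPH (10.8 ± 1.98 TPM) and S100A1 (11.4 ± 3.16 TPM) overlapped at day 15, whereas at day 0 every ASPH value was above every S100A1 value. The difference between these genes within an age was not tested.

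The unnamed gene and other shifts of the library total cancel in the ratio of 2 genes within a library. For this reason 8 ratios were compared over the 3 ages by an exact permutation F test (1680 assignments of the 9 libraries, smallest possible p 0.00357), with Benjamini-Hochberg adjustment over the 8. Several share a gene, so they are not independent. With 1 library left out, the adjusted p stayed under 0.05 in 3 of 9 such sets for RYR2 over ATP2A2, TRDN over RYR2 and S100A1 over ATP2A2. It did so in 2 for SLC8A1 over ATP2A2 and in 6 for ASPH over TRDN.

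The release channel rose relative to the pump. RYR2 stood at 0.0452, 0.0286 and 0.0354 of the level of ATP2A2 at day 0, at 0.0587, 0.0501 and 0.0576 at day 7, and at 0.0660, 0.0540 and 0.0611 at day 15. Every later library was above every newborn one, and the geometric mean rose 1.55-fold to day 7 and 1.68-fold to day 15 (exact permutation p = 0.0143, adjusted 0.0357). The low newborn value was again replicate 5, and without it the day 15 difference was 0.59 on the log2 scale in place of 0.75. S100A1 over ATP2A2 rose 3.43-fold from day 0 to day 15 (exact permutation p = 0.0107, adjusted 0.0357), with 0.00404, 0.00495 and 0.00193 at day 0, 0.00884, 0.00668 and 0.00563 at day 7, and 0.0194, 0.0110 and 0.00726 at day 15.

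The exchanger was lower relative to the pump at day 15. SLC8A1 over ATP2A2 was 0.210, 0.191 and 0.198 at day 0, 0.206, 0.204 and 0.181 at day 7, and 0.152, 0.149 and 0.145 at day 15. The day 15 libraries lay below all the others, at 0.745 of the newborn level (exact permutation p = 0.0286, adjusted 0.0457). The test covers the 3 ages together, and single steps were not tested. The adjusted p was above 0.05 in 7 of the 9 sets that leave out 1 library (highest 0.0857), all with the same direction and a log2 difference of -0.46 to -0.39.

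Within the release complex, TRDN over RYR2 rose from 0.235, 0.544 and 0.228 at day 0 to 0.616, 0.770 and 0.621 at day 7 and 0.591, 0.716 and 0.566 at day 15 (exact permutation p = 0.0179, adjusted 0.0357). Newborn replicate 5 was close to the older libraries, and without it the day 15 difference was 1.42 on the log2 scale in place of 1.01. ASPH over TRDN fell from 0.474, 0.575 and 0.732 at day 0 to 0.399, 0.343 and 0.314 at day 7 and 0.297, 0.291 and 0.309 at day 15, with no overlap between any of the ages (exact permutation p = 0.00357, the smallest possible, adjusted 0.0286).

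The other ratios did not pass. PLN over ATP2A2 was 8.06, 8.26 and 8.75 at day 0 and 10.1, 11.6 and 12.2 at day 7, with no overlap, but day 15 spread over 8.44, 14.5 and 11.2 (exact permutation p = 0.171, adjusted 0.171). CASQ2 over RYR2 had a geometric mean of 9.38 at day 0 and 5.48 at day 15 (exact permutation p = 0.157, adjusted 0.171), with newborn replicate 5 at 14.9. HRC over CASQ2 was 0.510, 0.491 and 0.500 at day 0 and 0.658, 0.628 and 0.592 at day 15, and day 7, at 0.503, 0.448 and 0.631, overlapped both (exact permutation p = 0.118, adjusted 0.157).

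**Figure D4:**
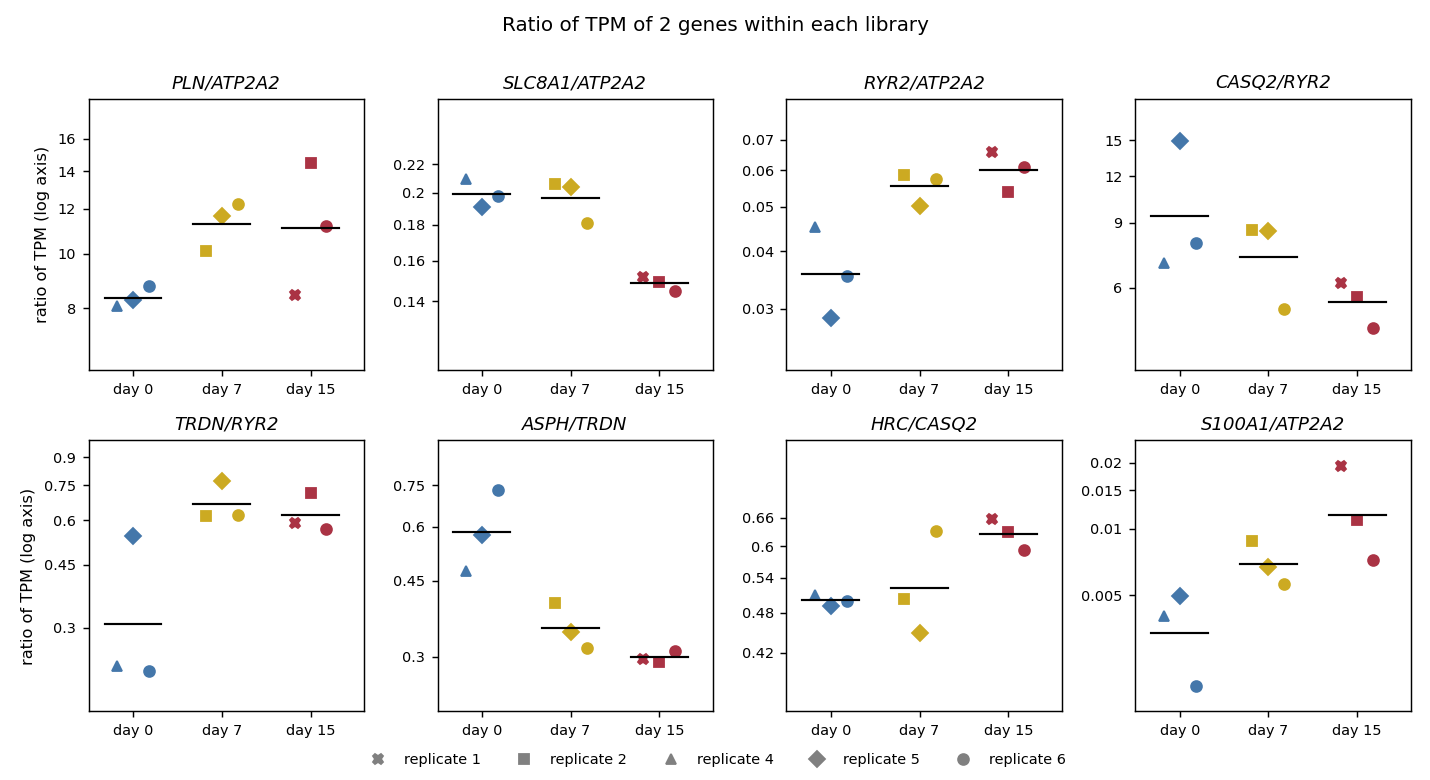
Ratio of the TPM of 2 genes in each library (y axis, log scale) by age (x axis), with marker shape for the replicate number and a bar for the geometric mean (n = 3). RYR2 over ATP2A2 is at or below 0.0452 in the newborn libraries and at or above 0.0501 later, and SLC8A1 over ATP2A2 is at most 0.152 at day 15 and at least 0.181 before.

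Other genes of the same cycle were taken from 6 lists of 85 genes, of which 77 were found and 63 passed the filter of at least 1 TPM in at least 3 libraries. At day 7 against day 0, 6 rose and 0 fell, beside 16.6% of all genes called. At day 15 against day 0, 5 rose and 8 fell, beside 23.9% of all genes called. That split depended on the scaling, with 14 rising and 4 falling after median-of-ratios scaling. Among all genes called, 23.1% were higher as deposited and 50.3% after that scaling. The libraries chosen mattered too, and the count at day 7 was 12 without newborn replicate 5 but 1 without newborn replicate 4 or 6. The share of all genes called moved likewise, to 20.1% without newborn replicate 5, 4.56% without replicate 4 and 3.06% without replicate 6. Between day 7 and day 15 none passed by limma, beside 0.171% of all genes called. Of these list genes, 8 had an unadjusted p under 0.05, a threshold not counted over all genes.

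Among 11 tested partners of the release complex, 2 rose and 0 fell at day 7, beside 7.67% of all genes higher and 8.88% lower. At day 15, 1 rose and 2 fell, beside 5.53% of all genes higher and 18.4% lower. The gene that rose at both ages was TECRL. TECRL, a reductase-like protein of the reticulum whose loss causes an exercise-induced arrhythmia like that of RYR2 or CASQ2 mutations, held 23.5 ± 5.19, 49.6 ± 13.0 and 61.1 ± 24.4 TPM at the 3 ages (SD, n = 3), a log2 fold change of 1.03 at day 7 and 1.28 at day 15 (limma adjusted p = 0.0328 and 0.0101). The first call was lost in 6 of 21 alternative settings and the second in 1, without newborn replicate 6 (limma adjusted p = 0.0516). SELENON, a reticulum protein that acts on calcium handling, rose by 0.62 at day 7 (limma adjusted p = 0.0489), a call lost in 10 alternatives. CALM2, one of the genes for calmodulin, a regulator of the release channel, fell by day 15, with a mean of 392 ± 23.0 TPM in newborns and 241 ± 34.3 at 15 days (-0.71, limma adjusted p = 0.0129). That call was lost in 3 alternatives, among them without newborn replicate 6 (limma adjusted p = 0.0648) or day 15 replicate 6 (0.0511). The most abundant partner, the luminal protein SRL, went from 447 ± 43.6 TPM in newborns to 345 ± 24.3 at day 15 without passing (limma adjusted p = 0.151).

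Of 16 kinase and phosphatase genes, 2 rose and 0 fell at day 7, beside 7.67% of all genes higher and 8.88% lower. At day 15, 2 rose and 1 fell, beside 5.53% of all genes higher and 18.4% lower. CAMK2B and CAMK2G rose at both ages. They encode subunits of the calmodulin-dependent kinase that phosphorylates RYR2 and PLN. CAMK2B held 8.74, 3.29 and 9.09 TPM at day 0, 24.1, 25.3 and 18.5 at day 7, and 12.0, 23.2 and 21.4 at day 15. Its log2 fold changes were 1.64 and 1.35 (limma adjusted p = 0.00928 and 0.0129), and both calls held in all 21 alternative settings. CAMK2G rose by 0.82 and 0.66 (limma adjusted p = 0.0169 and 0.0284), calls lost in 4 and 6 alternatives. CAMK2D, the most abundant of this list, held 166 ± 7.52, 241 ± 33.7 and 251 ± 71.9 TPM (limma adjusted p = 0.108 at day 7 and 0.0840 at day 15). CAMK2A, another gene of this kinase, held 134 ± 32.1, 88.5 ± 29.2 and 132 ± 8.60 TPM. It was lower at day 7 without passing (-0.61, limma adjusted p = 0.0998). PPP1CA, a catalytic subunit of the phosphatase that acts on PLN, fell by 0.51 at day 15 (limma adjusted p = 0.0474, lost in 13 alternatives).

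For the junction between surface membrane and store, CMYA5, which ties the release sites to the contractile fibres, rose from a newborn mean of 21.5 ± 2.32 TPM to 44.4 ± 12.4 at 7 days and 42.6 ± 14.6 at 15 days (log2 fold changes of 0.98 and 0.90, limma adjusted p = 0.0314 and 0.0315, each lost in 6 alternatives). DYSF, a membrane repair protein, rose by 0.69 at day 7 (limma adjusted p = 0.0323, lost in 7). TCAP, the titin cap, rose by 0.49 at day 15 (limma adjusted p = 0.0460, lost in 11). JPH1, a relative of JPH2, averaged 20.8 ± 5.87 TPM in newborns and 13.5 ± 3.70 at day 15 (limma adjusted p = 0.127).

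At the surface membrane, 3 of 15 tested genes of calcium entry and extrusion fell by day 15 and 0 rose, near the background of 18.4% of all genes lower and 5.53% higher. The store-operated channel gene ORAI1 held 15.0, 19.3 and 16.7 TPM at day 0 and 8.71, 11.4 and 9.04 TPM at day 15 (-0.75, limma adjusted p = 0.0124, lost in 3 alternatives, among them without newborn replicate 6, at 0.0538, or day 15 replicate 6, at 0.0581). The calcium pump ATP2B1 (-0.55) and the T-type channel CACNA1H (-0.52) had adjusted p of 0.0460 and 0.0438 by limma, each lost in 13. CACNA1C, the L-type channel that triggers release, had 17.1 ± 6.24 and 11.4 ± 1.11 TPM (-0.49, limma adjusted p = 0.169). FXYD1, the most abundant of this list, varied between 238 and 371 TPM.

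Of 6 tested pump regulators other than PLN, 0 rose and 2 fell by day 15, beside 5.53% of all genes higher and 18.4% lower. SLN and MRLN, small proteins that inhibit the pump, reached at most 0.110 and 0.705 TPM and were not tested. PPP1R1A, an inhibitor of the phosphatase, fell by 0.69 and TMX1 by 0.65 at day 15 (limma adjusted p = 0.0337 and 0.0465, lost in 9 and 11 alternatives). HSPB6 averaged 124 ± 61.5 TPM in newborns and 241 ± 71.9 at day 15, where every library was above the newborn ones (1.03, 0.18 to 1.88, limma adjusted p = 0.0720). Of 5 tested genes for forms of the machinery used in other tissues none passed by limma, beside 16.6% of all genes at day 7 and 23.9% at day 15. Among these, ATP2A3 reached at most 8.16 and SLC8A2 5.06 TPM. RYR3 reached at most 0.145, ATP2A1 0.499 and SLC8A3 0.0872 TPM and were not tested. Skeletal calsequestrin CASQ1, listed with the release partners, reached 10.7 TPM. Its newborn mean was 6.41 TPM, where that of S100A1 was 4.31.

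**Figure D5:**
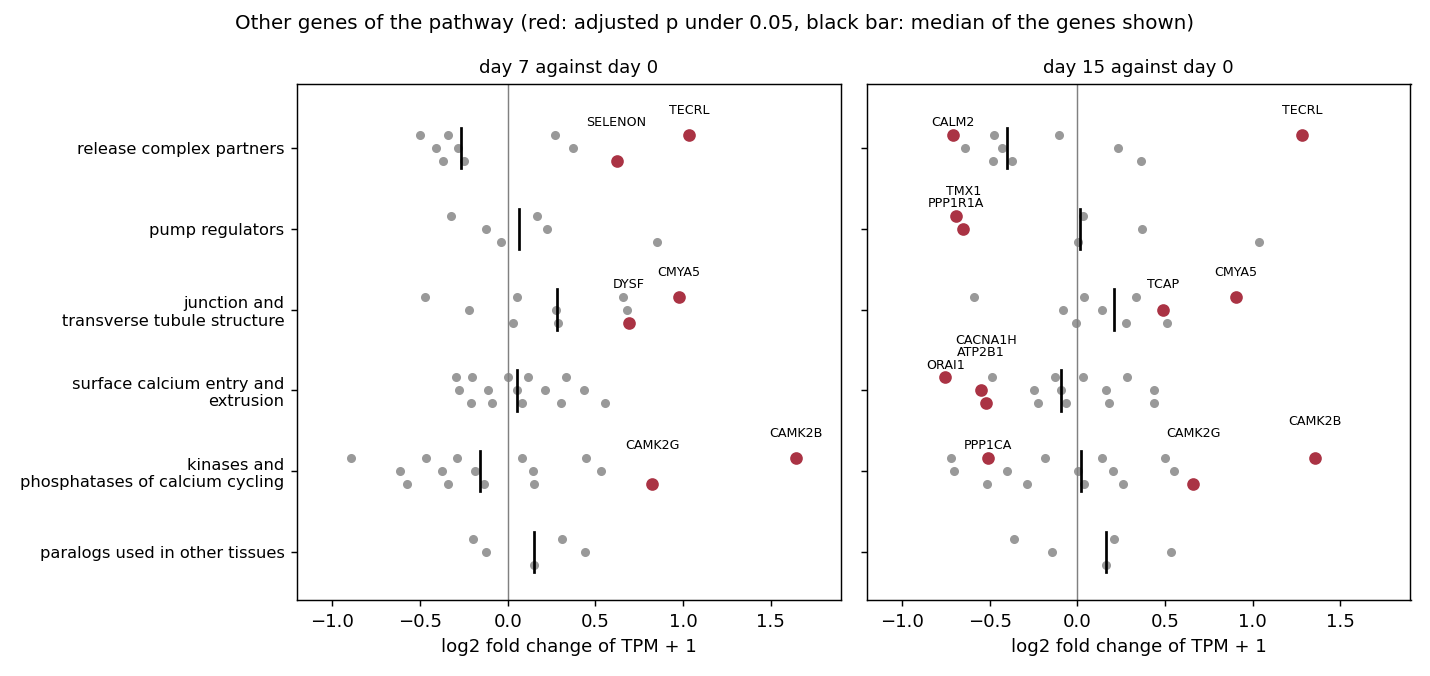
Log2 fold change of TPM + 1 (x axis) of the tested genes of 6 lists except 1 (y axis, points spread vertically for legibility) for day 7 and day 15 against day 0, red and named where the adjusted p was under 0.05, with a black bar at the median of the genes shown. The first panel shows 6 red points, all to the right of 0, and the second shows 5 to the right and 7 to the left.

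Profiles over the 9 libraries were compared by the root mean square difference of centred log2 values, among 7142 named genes with a mean of at least 5 TPM. Closest to TRDN was CALCOCO1, a receptor for the selective breakdown of endoplasmic reticulum (12.2, 30.7 and 32.6 TPM by age, difference 0.11), then TXLNB (0.14) and CEP85 (0.15). Closest to ATP2A2 were G3BP2 (0.08), ATF6 (0.09) and USP47 (0.09), and closest to RYR2 were MYLIP (0.13), ABHD18 (0.15) and MYPN (0.17).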

How the data were processed

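The authors deposited 1 table of TPM values for 9 libraries, all used, made with tools that include HISAT2 2.0.5, kallisto 0.43.1 and Trimmomatic 0.33, per the submitters' processing notes, which give no role or order. The build, the annotation and whether counting used strand were not given in the sources used here. TPM keeps no read counts, so no counting interval can be given. Rows under Ensembl identifiers were named from a reference table where the symbol was free (889 rows). Genes of at least 1 TPM in at least 3 libraries were fitted on log2(TPM + 1) with limma 3.58.1 in R 4.3.3 (1 mean per age, 6 residual degrees of freedom, variances moderated along a trend with level). The 1 TPM added before the log2 understates changes of low genes. Within-library ratios used no pseudocount. Those with JPH2, FKBP1B or SLN were not computed, and JPH2, FKBP1A, FKBP1B and RYR1 were not analysed here. The values of 1 list gene are counted but not reported here. The scripts were checked on simulated data. Named genes were the 9 members, list genes that passed, the most abundant of each list, a few fixed by name and the 3 closest profiles. CAMK2A was added after seeing the data. Members and lists were chosen with earlier results of these data known. The alternatives are given in the closing section.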

Additional observations from a re-analysis of the deposited data

How the results depend on the processing

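No result past the threshold reversed direction under the 21 alternative settings or the 2 added after seeing the data. The members called at day 7 against day 0 were 2 in place of 1 with median-of-ratios scaling, quantile normalization, rescaling without mitochondrial and the 20 most abundant genes, and rescaling without the most abundant gene, where ASPH joined TRDN, as it joined the 3 members called at day 15. They were 3 without newborn replicate 5 and day 15 replicate 1 together, an alternative chosen after seeing the data, where ASPH (0.67, limma adjusted p = 0.0292) and S100A1 (0.67, limma adjusted p = 0.0441) joined. The other list genes called at day 7, 6 in the main analysis, were 17, 11, 16 and 13 under those 4 scalings, 2 without a filter, 14 without the 2 libraries and 1 to 12 leaving out 1 library. Of all genes, 16.6% were called at day 7 in the main analysis and 30.9%, 29.0%, 29.2% and 28.0% under those scalings in turn. The share was 6.98% without a filter, 27.6% without the 2 libraries and 3.06% to 21.9% leaving out 1 library. At day 15 against day 0, 13 became 20 with quantile normalization and 20 without the most abundant gene, and 2 to 12 leaving out 1 library. The share of all genes called there was 23.9% in the main analysis, then 30.7%, 30.8% and 6.47% to 26.9%. At day 15 against day 7, 0 became 1 without the 2 libraries, beside 0.766% of all genes. With the replicate number as a block, the counts of other list genes were 2 at day 7 and 5 at day 15, beside 6.99% and 7.49% of all genes. At day 15 the calls of SLC8A1 (limma adjusted p = 0.266), CALM2 (0.189), ORAI1 (0.0763), CAMK2G, TCAP, TMX1, ATP2B1, CACNA1H and PPP1CA were lost, as were those of CAMK2G, TECRL, DYSF and SELENON at day 7. The labels do not say whether equal numbers pair the libraries. Deviations of same-numbered libraries correlated at -0.21 to 0.17 and those of differently numbered ones at -0.33 to 0.37. These ranges overlap and rest on few pairs, so they cannot decide the question. Leaving out 1 library, the log2 ratio differences between day 15 and day 0 ranged from -0.46 to -0.39 for SLC8A1 over ATP2A2, 0.59 to 0.92 for RYR2 over ATP2A2, 0.80 to 1.42 for TRDN over RYR2, -1.12 to -0.80 for ASPH over TRDN, 0.29 to 0.36 for HRC over CASQ2, 1.37 to 2.11 for S100A1 over ATP2A2, -0.99 to -0.44 for CASQ2 over RYR2 and 0.22 to 0.61 for PLN over ATP2A2, with adjusted p up to 0.0857, 0.103, 0.103, 0.0857, 0.257, 0.131, 0.346 and 0.289. The cause of these shifts was not tested. Read depth is unknown for every value.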
